A study of Saccharomyces cerevisiae with 6 samples.

Results

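The cytosolic ribosome of budding yeast is built from a small and a large subunit, and the genes described here encode the proteins of the large one. They were taken from the nuclear mRNA class of the deposited tables, as every row named RPL followed by a digit together with RPP0, RPP1A, RPP1B, RPP2A and RPP2B. This gave 75 rows of 5605 nuclear mRNA rows. Of their names, 12 were given to 2 rows each, and summing those rows left 63 features, named here as deposited. Members without a second gene copy numbered 9, and the other 66 rows formed 33 pairs of an A and a B copy. RNA had been extracted from isolated mitochondria of Saccharomyces cerevisiae CEN.PK113-7D, a haploid laboratory strain used in physiology and biotechnology, and sequenced as native RNA on Nanopore flow cells. The 6 libraries came from 3 cultures on ethanol (the growth protocol names an ethanol-glycerol medium) and 3 cultures on glucose, all in synthetic medium in shake flasks, harvested in mid-exponential phase and described as biological triplicates. All 6 were given poly(A) tails by an enzyme before library preparation. The comparison asked how the RNA of the mitochondrial isolate changes when cells respire rather than ferment.

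In yeast most ribosomal proteins are encoded by duplicated genes that make identical or nearly identical proteins. Their promoters bind Rap1, which recruits the activators Fhl1 and Ifh1, and the TOR and protein kinase A pathways tie the output of these genes to nutrients and growth. The mRNAs are translated by cytosolic ribosomes. Whether those read in a mitochondrial isolate were carried along from the cytosol or held at the mitochondrial surface was not tested.

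The recognition sequence of Rap1 was looked up in these genes, since it is the element many of them have in common. The core ACCCNNACA was searched on both strands (TGTNNGGGT on the other) in the 600 bases before each start codon, with gene symbols matched to the R64 assembly of strain S288C from RefSeq, which is not the strain sequenced here. It was the only motif searched. It was present before 37 of the 75 member genes (49.3%), against 387 of 5999 protein-coding genes (6.45%), and 4 members held it at 2 or more positions. A match is a string of letters and not a measured binding site. Stretches of 40 bases around the core, 5′ to 3′ on the strand of the gene with the core in capitals, are shown for members from both ends of the fold changes given further on, RPL13A and RPL9A at the low end, RPL38 near the middle and RPL25 at the high end.
RPL13A: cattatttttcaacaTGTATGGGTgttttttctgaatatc
RPL9A: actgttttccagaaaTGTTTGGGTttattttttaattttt
RPL38: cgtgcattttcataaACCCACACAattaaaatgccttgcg
RPL25: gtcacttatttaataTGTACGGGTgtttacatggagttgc
The capitals began 281 bases before the start codon in RPL13A, which held a further core nearer to it, 310 in RPL9A, 269 in RPL38 and 398 in RPL25. Among the 72 member rows tested singly, the 36 with a core had a median log2 fold change of -0.78 and the 36 without had one of -1.01. The ranges were -2.42 to 0.39 with a core and -2.32 to 0.08 without.

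Levels are given in parts per 1000000 (ppm) of the CPM that each library assigned to nuclear mRNA without ENO2. ENO2, which encodes the glycolytic enzyme enolase, was left out since it alone held 4.94, 49.9 and 21.9% of all CPM with ethanol and 6.81, 3.63 and 2.63% with glucose. Whether all ENO2 reads came from the cells was not tested. On this scale the ethanol libraries rested on 8284, 19087 and 63081 nuclear reads and the glucose libraries on 121147, 97474 and 107311, so 1 read was worth 15.9 to 121 ppm with ethanol and 8.25 to 10.3 ppm with glucose. Ethanol replicate 3 stood apart from the other 2 ethanol libraries, with chi-square values per degree of freedom of 3.03 and 4.80 over nuclear features, where pairs of glucose libraries gave 1.18 to 1.43. Cytosolic rRNA took 37.3 to 81.5% of CPM with ethanol and 72.7 to 81.1% with glucose, and mitochondrial features took 3.15 to 12.6% and 6.41 to 7.50%. The part of differing purity of the isolates in the values that follow was not tested.

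The large-subunit genes held a smaller part of the nuclear mRNA in the ethanol libraries than in the glucose libraries. Their summed share was 4.83, 4.66 and 4.93% with ethanol, against 8.36, 9.28 and 8.90% with glucose. The 2 groups did not overlap, and the spread within each was small beside the gap between them. Counting error alone gave a 95% Wilson interval of 4.39 to 5.31% for the shallowest library, Ethanol 1, on 400 member reads. The mean was 4.80 ± 0.136% with ethanol and 8.84 ± 0.461% with glucose (SD, n = 3 each), a ratio of 0.543 and a difference of -4.04 percentage points. The two-sided exact permutation p was 0.1, the smallest that 3 against 3 libraries can give. The 9 members without a second copy, for which reads cannot be split between copies, gave 1.23 ± 0.0214% with ethanol and 2.15 ± 0.110% with glucose (SD, n = 3 each). Less RNA per cell and fewer of these transcripts purified with the mitochondria cannot be told apart in such samples.

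**Figure D1:**
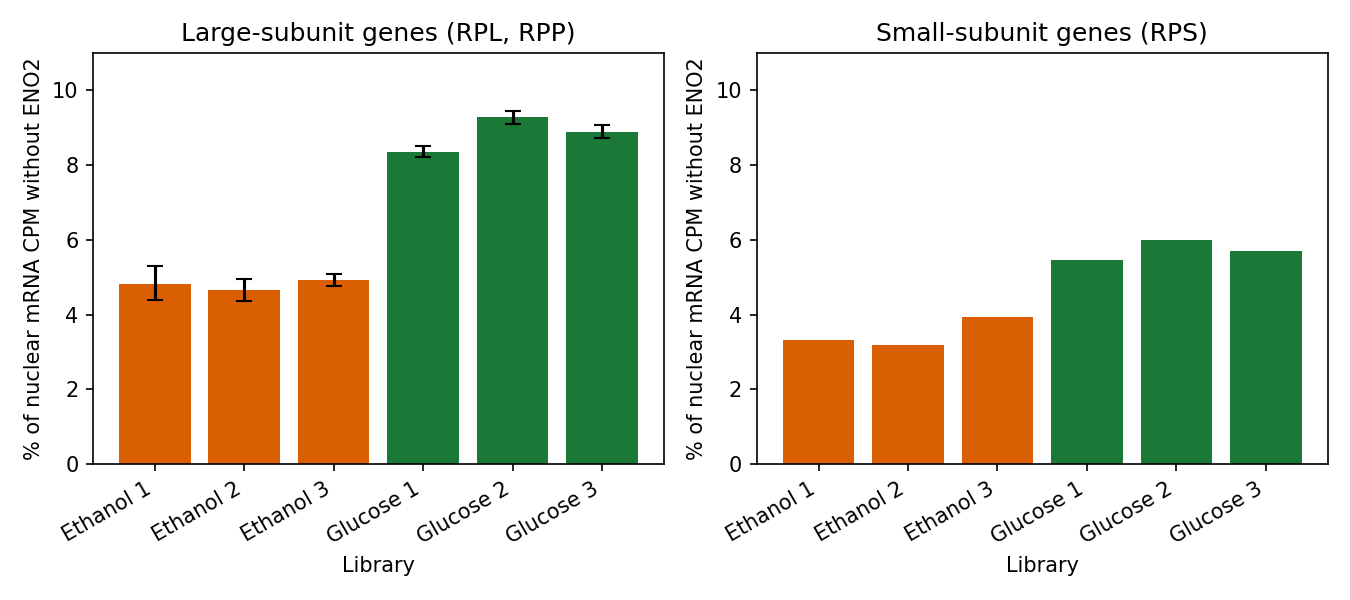
Share of nuclear mRNA CPM without ENO2 (%, y axis) held by large-subunit (left) and small-subunit (right) ribosomal protein genes in each library, with 95% Wilson intervals on the left that cover counting error only. The 3 ethanol libraries (orange) sit between 4.66 and 4.93% on the left, below the glucose libraries (green) at 8.36 to 9.28%.

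The genes of the small subunit, RPS, gave a like picture. They held 3.31, 3.19 and 3.92% of nuclear mRNA with ethanol, against 5.46, 6.0 and 5.71% with glucose. The ratio of large-subunit to small-subunit CPM, which needs no scaling, was 1.46, 1.46 and 1.26 with ethanol and 1.53, 1.55 and 1.56 with glucose. Its mean was 1.39 ± 0.118 with ethanol and 1.55 ± 0.0132 with glucose (SD, n = 3 each; two-sided exact permutation p = 0.1). The groups of ratios did not overlap, but the ethanol mean was set largely by Ethanol 3, and without that library the difference shrank to -0.0863 as against -0.154 with it.

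Gene by gene, 37 of the 62 large-subunit features tested were lower with ethanol and 0 were higher, by limma with Benjamini-Hochberg adjustment over all 1030 nuclear features tested and a threshold of 0.05. Over all features tested, 25.5% were called lower and 26.8% were called higher, so the members' 59.7% lower and 0% higher lay on either side of that background. RPL22B, at 121, 105 and 31.7 ppm in the ethanol libraries, against 189.9, 185 and 233 ppm in the glucose libraries, was under the filter of a mean of 200 ppm and was not tested. The median member had a log2 fold change of -0.89 with an interquartile range from -1.30 to -0.59, where the median of all features tested was -0.04. Member fold changes were also close to one another, with an SD of 0.59 on the log2 scale where that of all features tested was 1.70. Every ethanol value was under the lowest glucose value for 51 of the 62 (82.3%, where 33.4% of all features tested did so), and for 0 was every ethanol value above the highest glucose value (32.6% of all features tested).
The count of 37 depended on how many glucose libraries were used, since it was 19, 13 and 13 without Glucose 1, 2 and 3. Over all features tested, the share called lower was then 12.4, 11.3 and 9.93%. With 1 glucose library left out, RPL3, RPL4A, RPL4B, RPL7B, RPL13A, RPL31B, RPL32 and RPL38, which are described singly further on, each lost the call at least once, at limma adjusted p values of 0.050 to 0.131. Without a filter on low values 20 members (31.7%) were called lower, beside 7.34% of all features. On the deposited CPM scale 4 members (6.35%) were called lower, under the 11.4% of all features.

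**Figure D2:**
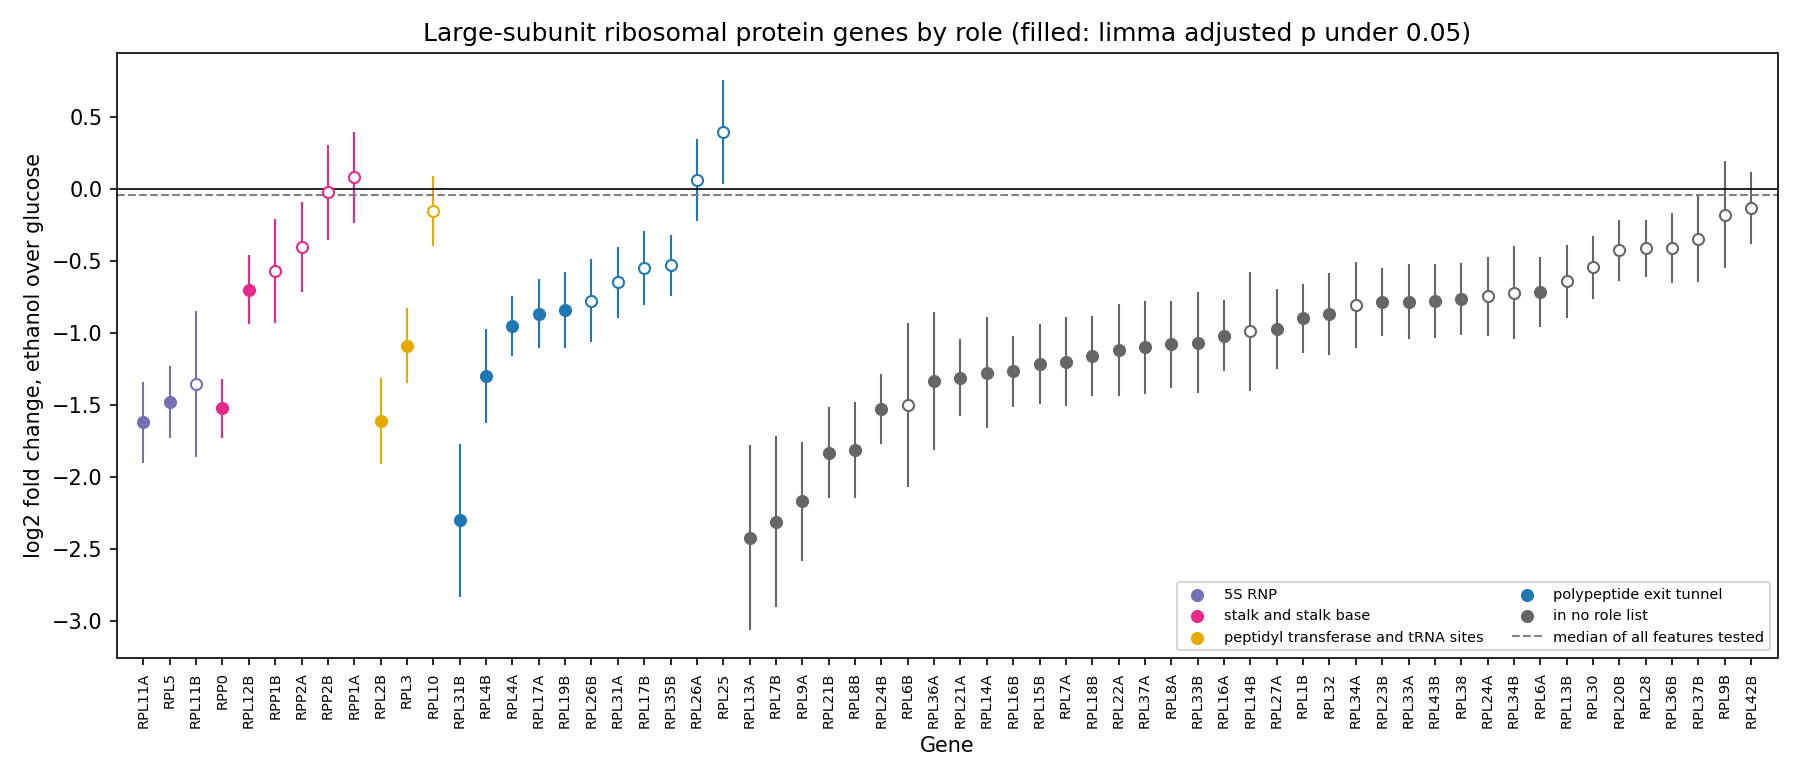
Log2 fold change of each of the 62 large-subunit features tested (ethanol over glucose, y axis) with its standard error, grouped by role along the x axis; filled points passed the limma threshold. The dashed line is the median of all features tested, -0.04, and 59 of the 62 points lie below 0.

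The 5S ribonucleoprotein, in which Rpl5 and Rpl11 hold the 5S rRNA, was lower with ethanol at 2 of its 3 genes, beside 25.5% of all features tested. RPL5 (chromosome 16, 311439 to 312332, plus strand of the CEN.PK113-7D assembly in the deposited tables) had 724, 891 and 1173 ppm in the ethanol libraries, against 2303, 2893 and 2758 ppm in the glucose libraries. Its groups were far apart, with a log2 fold change of -1.48 ± 0.25 (SE, n = 3 per group; limma adjusted p = 0.00317). The A copy of RPL11 also passed the test at -1.62 ± 0.28 (log2 scale, SE, n = 3 per group; limma adjusted p = 0.00317), while the B copy had -1.36 ± 0.51 and did not, with an adjusted p of 0.0528. The ratio of RPL11A plus RPL11B to RPL5 was 0.752 ± 0.219 with ethanol and 0.782 ± 0.050 with glucose (SD, n = 3 each; two-sided exact permutation p = 0.9), on 4 RPL11 reads in the shallowest library.

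Of the 6 stalk features, RPP0 and RPL12B were lower with ethanol and the other 4 did not pass, a share not far from the 25.5% of all features called lower. The stalk recruits translation factors to the ribosome. Rpp0 forms its base on the rRNA and carries the acidic proteins Rpp1 and Rpp2, of which yeast has an A and a B gene each that are distinct in sequence. RPP0 (chromosome 12, 765427 to 766365, plus strand) had 1811, 1309.8 and 1569 ppm in the ethanol libraries, against 4614, 4617 and 4454 ppm in the glucose libraries. Its libraries did not overlap and were tight within each group, with a log2 fold change of -1.53 ± 0.21 (SE, n = 3 per group; limma adjusted p = 0.00113). RPL12B, the summed feature of both genes for a protein beside the stalk base, was lower, at -0.70 ± 0.24 on the log2 scale (SE, n = 3 per group; limma adjusted p = 0.0390).

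The 4 acidic protein genes differed by less than the test could call. RPP1A had 2052, 995 and 1332 ppm in the ethanol libraries, against 1048, 1395 and 1570.2 ppm in the glucose libraries. The groups overlapped, and the log2 fold change was 0.08 ± 0.32 (SE, n = 3 per group; limma adjusted p = 0.836). RPP2B had 2656, 2934 and 1284 ppm in the ethanol libraries, against 1899, 2421 and 2311 ppm in the glucose libraries, and Ethanol 3 was below the other 2 ethanol libraries. Its log2 fold change was -0.03 ± 0.33 (SE, n = 3 per group; limma adjusted p = 0.943). RPP1B had 241, 367 and 650.0 ppm in the ethanol libraries, against 569.6, 708 and 545 ppm in the glucose libraries, with a log2 fold change of -0.57 ± 0.36 (SE, n = 3 per group; limma adjusted p = 0.208). RPP2A had 966, 576 and 444 ppm in the ethanol libraries, against 834, 831 and 885 ppm in the glucose libraries. Here too the groups overlapped, and its log2 fold change was -0.40 ± 0.31 (SE, n = 3 per group; limma adjusted p = 0.295).

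Set against RPP0, the sum of the 4 acidic protein genes was higher in every ethanol library, a ratio chosen after the values were seen. The sum of the 4 was 3.27, 3.72 and 2.36 times RPP0 in the ethanol libraries, against 0.943, 1.16 and 1.19 times in the glucose libraries. The means were 3.12 ± 0.690 with ethanol and 1.10 ± 0.136 with glucose (SD, n = 3 each), and the two-sided exact permutation p was 0.1, the smallest possible. RPP0 had 15 reads and the 4 together had 49 reads in the shallowest library. The acidic protein genes RPP1A, RPP2A and RPP2B were among the shortest features, at 321 to 333 bases where RPP0 had 939, and shorter features tended to have higher fold changes. When a linear trend with log2 length was removed from each library, an alternative added after seeing the data, RPP2B came to -0.96 on the log2 scale (limma adjusted p = 0.0208) and RPP2A to -1.36 (limma adjusted p = 0.00808). The direction of RPP1A also turned, to -0.88 (limma adjusted p = 0.0685).

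**Figure D3:**
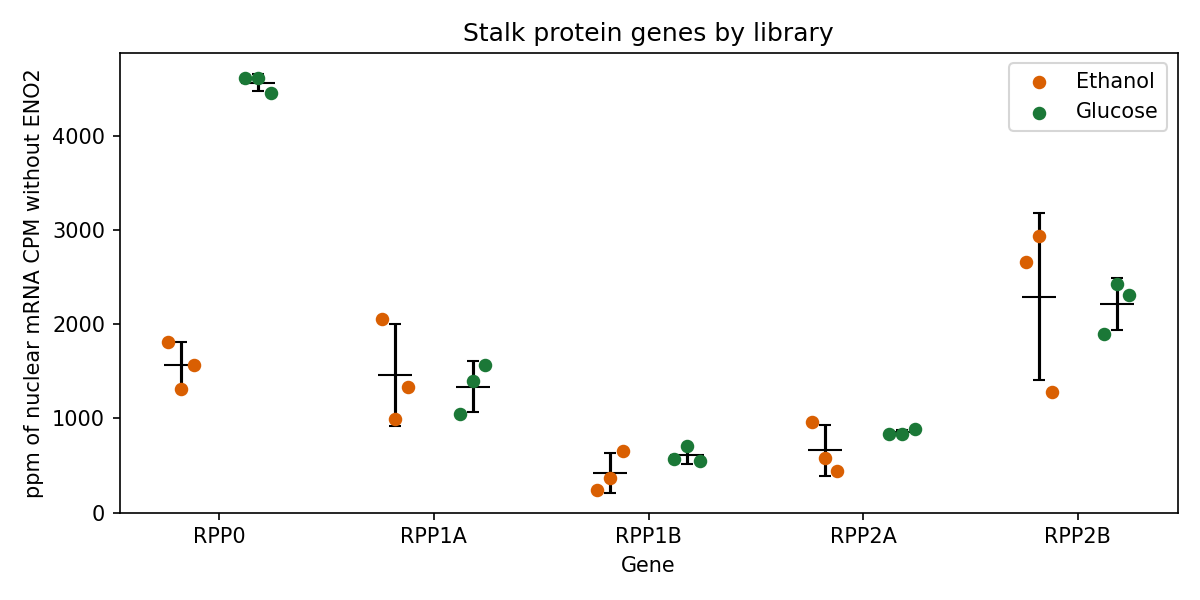
Level of the 5 stalk protein genes in each library (points, ppm of nuclear mRNA CPM without ENO2), ethanol in orange and glucose in green, with the mean and SD of 3 libraries in black. RPP0 separates the groups, at 1310 to 1811 ppm with ethanol and 4454 to 4617 ppm with glucose, and the 4 acidic protein genes do not.

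Around the peptidyl transferase centre, where peptide bonds form, and the tRNA sites beside it, 2 of the 3 features listed were lower with ethanol. Of all features tested, 25.5% were called lower. RPL3 (chromosome 15, 444573 to 445736, plus strand), whose protein reaches toward that centre, had 1449, 2672 and 1855 ppm in the ethanol libraries, against 3871, 4519 and 4128 ppm in the glucose libraries. The groups did not overlap, and its log2 fold change was -1.09 ± 0.26 (SE, n = 3 per group; limma adjusted p = 0.0107). RPL2B, the summed feature of both RPL2 genes for another protein of that region, was lower, at -1.61 ± 0.30 on the log2 scale (SE, n = 3 per group; limma adjusted p = 0.00410). RPL10 (chromosome 12, 261962 to 262627, plus strand), whose protein joins the large subunit last and completes its maturation, had 2052, 2096 and 3281 ppm in the ethanol libraries, against 2633, 2631 and 2824 ppm in the glucose libraries. Ethanol 3 was the highest of the 6 and Ethanol 1 and 2 the lowest, and the log2 fold change was -0.15 ± 0.24 (SE, n = 3 per group; limma adjusted p = 0.608). The ratio of RPL10 to RPL5, chosen after the values were seen, was 2.83, 2.35 and 2.80 with ethanol and 1.14, 0.910 and 1.02 with glucose, on as few as 6 RPL5 reads and 17 RPL10 reads. Its groups did not overlap (two-sided exact permutation p = 0.1). Without Ethanol 3, RPL10 came to -0.37 on the log2 scale (limma adjusted p = 0.0419).

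Of the 11 features around the polypeptide exit tunnel, the channel through which the new protein leaves, 5 were lower with ethanol (RPL4A, RPL4B, RPL17A, RPL19B and RPL31B) and 6 did not pass (RPL17B, RPL25, RPL26A, RPL26B, RPL31A and RPL35B). The share called lower over all features tested was 25.5%. Both RPL4 genes were lower, whose protein lines the tunnel with a long loop, but their coding sequences were 98.9% identical, so the division of reads between them is uncertain. RPL4A had 966, 995 and 1126 ppm in the ethanol libraries, against 2051, 1908 and 2153 ppm in the glucose libraries. All ethanol values lay below all glucose values, with a log2 fold change of -0.95 ± 0.21 (SE, n = 3 per group; limma adjusted p = 0.00804). RPL4B had 483, 262 and 618 ppm in the ethanol libraries, against 1106, 1098 and 1207 ppm in the glucose libraries, with a log2 fold change of -1.30 ± 0.33 (SE, n = 3 per group; limma adjusted p = 0.0133). RPL31B (chromosome 12, 890334 to 891264, minus strand), for a protein of the tunnel rim, had 0, 52.4 and 143 ppm in the ethanol libraries, against 479, 482 and 373 ppm in the glucose libraries. No read was seen in Ethanol 1, where 3 reads would be 362 ppm, and its log2 fold change was -2.30 ± 0.53 (SE, n = 3 per group; limma adjusted p = 0.00942).

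RPL25 (chromosome 15, 80247 to 81224, plus strand), whose protein at the tunnel exit is a docking site for factors that receive new proteins, had the highest fold change of the members. It had 1328, 891 and 491 ppm in the ethanol libraries, against 586, 636 and 662 ppm in the glucose libraries. Ethanol 1 and 2 lay above every glucose library and Ethanol 3 below all of them. The log2 fold change was 0.39 ± 0.36 (SE, n = 3 per group; limma adjusted p = 0.374). Without Ethanol 3 it was the 1 member called higher, at 0.75 (limma adjusted p = 0.0242). RPL26A, for a protein near the tunnel exit, had 362, 524 and 491 ppm in the ethanol libraries, against 355, 523 and 438 ppm in the glucose libraries, and the groups overlapped. Its log2 fold change was 0.06 ± 0.28 (SE, n = 3 per group; limma adjusted p = 0.861).

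The remaining 39 features tested, in no role list, were lower with ethanol at 26 and higher at 0, with a median log2 fold change of -0.99. Over all features tested, 25.5% were called lower and 26.8% higher. Beside those described singly, RPL1B, RPL6A, RPL7A, RPL8A, RPL8B, RPL14A, RPL15B, RPL16A, RPL16B, RPL18B, RPL21A, RPL22A, RPL23B, RPL24B, RPL27A, RPL33A, RPL33B, RPL36A, RPL37A and RPL43B were lower, from -1.82 for RPL8B to -0.72 for RPL6A. The 13 that did not pass ranged from -1.50 for RPL6B to -0.14 for RPL42B, and the others of them were RPL9B, RPL13B, RPL14B, RPL20B, RPL24A, RPL28, RPL30, RPL34A, RPL34B, RPL36B and RPL37B. Among the members without a second copy, RPL32 had 1086, 891 and 587 ppm in the ethanol libraries, against 1419.8, 1457 and 1836 ppm in the glucose libraries. The log2 fold change was -0.87 ± 0.29 (SE, n = 3 per group; limma adjusted p = 0.0337). RPL38, the shortest feature at 237 bases, had 845, 629 and 626 ppm in the ethanol libraries, against 1024, 1304 and 1342 ppm in the glucose libraries. It was lower with a log2 fold change of -0.77 ± 0.25 (SE, n = 3 per group; limma adjusted p = 0.0346), which became -1.94 with the trend on length removed. RPL38 did not pass in 9 of 19 alternative fits and RPL32 in 8 of 20, with limma adjusted p values of up to 0.207 and 0.183. RPL30, whose protein binds its own pre-mRNA and inhibits its splicing, had 966, 1205 and 983 ppm in the ethanol libraries, against 1494, 1621 and 1538 ppm in the glucose libraries. No ethanol library reached the lowest glucose library, but its log2 fold change of -0.55 ± 0.22 (SE, n = 3 per group; limma adjusted p = 0.0664) did not pass. RPL28 had 1811, 1677 and 1934 ppm in the ethanol libraries, against 2270.0, 2544 and 2460.1 ppm in the glucose libraries, again without overlap. Its log2 fold change was -0.41 ± 0.20 (SE, n = 3 per group; limma adjusted p = 0.106).

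At the low end, RPL13A (chromosome 4, 308080 to 309156, plus strand) had 0, 157 and 285 ppm in the ethanol libraries, against 759, 698 and 839 ppm in the glucose libraries. It was read 0, 3 and 18 times in the ethanol libraries, and its log2 fold change was -2.42 ± 0.64 (SE, n = 3 per group; limma adjusted p = 0.0166). RPL7B had 0, 52.4 and 206 ppm in the ethanol libraries, against 421, 667 and 429 ppm in the glucose libraries. It too had no read in Ethanol 1, and the log2 fold change was -2.32 ± 0.59 (SE, n = 3 per group; limma adjusted p = 0.0148). RPL21B had 362, 157 and 285 ppm in the ethanol libraries, against 1057, 1005 and 1062 ppm in the glucose libraries. The groups were separated by a wide gap, with a log2 fold change of -1.83 ± 0.32 (SE, n = 3 per group; limma adjusted p = 0.00317). RPL42B, the summed feature of the 2 genes for a protein at the tRNA exit site, lay among the 5 highest with 966, 1519 and 1094 ppm in the ethanol libraries, against 1213, 1354 and 1314 ppm in the glucose libraries. Its groups overlapped, and its log2 fold change was -0.14 ± 0.25 (SE, n = 3 per group; limma adjusted p = 0.659).

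Per kilobase of feature, RPP2B had the highest value of the members in both groups, at 6881 ± 2652 ppm per kb with ethanol and 6637 ± 827 ppm per kb with glucose (SD, n = 3 each). This order rests on the division by length, which raises short features such as RPP2B at 333 bases. Before that division RPP2B had a mean of 2210 ppm with glucose, where the summed feature RPL2B had 4082 ppm. Per kilobase, RPP0 was the fourth with glucose at 4858 ± 99.1 ppm per kb and the twelfth with ethanol at 1665 ± 267 ppm per kb. RPP1A took the opposite course in the order, as the second with ethanol at 4548 ± 1682 ppm per kb and the fifth with glucose at 4168 ± 827 ppm per kb. RPL38, RPL10 and the features RPL12B and RPL15B, each the sum of 2 genes, were also among the first 7 in both groups. In the ethanol order, the ranges of mean ± SD of neighbours overlapped throughout the first 7. As a description across the 63 features, the Pearson correlation of the member profiles was 0.969 to 0.979 between glucose libraries and 0.731 to 0.843 between ethanol libraries, which had fewer reads.

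Feature length moved with the fold change among members as among all features. The Pearson correlation of log2 fold change with log2 length was -0.244 over the 62 members and -0.304 over the 1030 features tested, given as a description. By deposited length members were shorter than the rest, with a median of 946 bases where that of all features tested was 1197, while the trend was for shorter features to be higher. The deposited length of a row includes introns, which 50 of the 75 member rows have in R64. RPL31A thus had 923 bases against 342 coding bases in R64, where RPP1A, without an intron, had 321 for both. The part of introns in the length trend was not tested. With the trend removed, the median member had a log2 fold change of -1.17 and 49 members were called lower, beside 23.5% of all features. The 24 member rows without an intron in the coding sequence had a median log2 fold change of -1.02 and the 48 with one had -0.83.

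**Figure D4:**
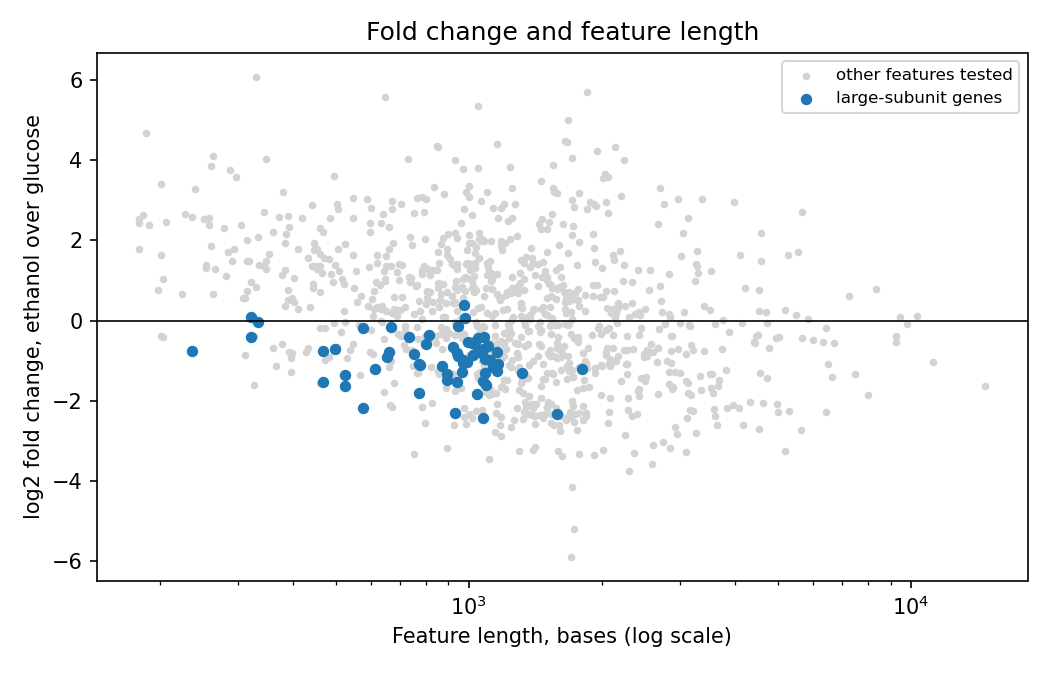
Log2 fold change (ethanol over glucose, y axis) against feature length in bases (x axis, log scale) for the 1030 nuclear features tested, with the large-subunit genes in blue. The large-subunit genes span -2.42 to 0.39, a narrow band within the -5.88 to 6.07 of all features tested.

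Other genes of the translation machinery were read from the same fit. Over all features tested, 25.5% were called lower and 26.8% higher, to be set beside the counts that follow. Of 40 small-subunit features tested, 16 were lower and 0 higher, with a median log2 fold change of -0.72. RPS7B had 0, 105 and 349 ppm in the ethanol libraries, against 631, 749 and 783 ppm in the glucose libraries. It was the lowest of them, with a log2 fold change of -2.40 ± 0.67 (SE, n = 3 per group; limma adjusted p = 0.0198), and RPS26B was also lower, at -1.51. Of 7 translation elongation factor genes tested, 3 were lower and 0 higher. YEF3, the fungal elongation factor that clears the exit site, had 1449, 1205 and 1443 ppm in the ethanol libraries, against 4763, 4765 and 5153 ppm in the glucose libraries. Its libraries were tight, with a log2 fold change of -1.81 ± 0.20 (SE, n = 3 per group; limma adjusted p = 0.000442). EFT1, for the factor that moves the ribosome along the mRNA, had 3259, 3719.7 and 3662 ppm in the ethanol libraries, against 6311, 6617 and 6765 ppm in the glucose libraries, with a log2 fold change of -0.88 ± 0.17 (SE, n = 3 per group; limma adjusted p = 0.005). This feature, with a mean length of 2528.5 bases, is a sum of rows that share the name. Whether they include EFT2, the near-identical second gene, was not tested. TEF4, for a subunit of the exchange factor complex, had 0, 157 and 555 ppm in the ethanol libraries, against 1185, 1108 and 1258 ppm in the glucose libraries, and a log2 fold change of -2.74 ± 0.78 (SE, n = 3 per group; limma adjusted p = 0.0209). TEF1, which encodes the factor that delivers tRNAs, had 20764, 19018 and 11319 ppm with ethanol and 15555, 16902 and 15474 ppm with glucose, and did not pass.

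Most of the genes that regulate or assemble the large subunit were too low to test. Of 10 transcriptional regulators of ribosomal protein genes 1 was tested, DOT6, and of 44 listed assembly and export factors 1, NOG2. Of 6 genes listed as chaperones 1 was tested, NAP1. That NAP1 escorts a large-subunit protein is not shown by these data. None of the 3 passed, at log2 fold changes of 0.60 for DOT6 (limma adjusted p = 0.230), 0.81 for NAP1 (limma adjusted p = 0.103) and -0.35 for NOG2 (limma adjusted p = 0.799). NOG2 varied widely between replicates, at 4346, 157 and 3662 ppm with ethanol and 933, 2580 and 2633 ppm with glucose. What was read at NOG2 was not tested. The 32 genes named MRPL, for large-subunit proteins of the mitochondrial ribosome, were all under the filter.

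The last part of the comparison was between the A and B copies of each pair. Names told 21 pairs apart in the deposited tables. In the other 12 both rows carried 1 name, and the copy was found from the chromosome and from 8 to 11 of 12 neighbouring genes shared with the R64 annotation. Coding sequences of the A and B copies were 68.9 to 99.4% identical in R64, with a median of 93.2%, and reads from the 4 pairs at 98% or more (RPL1, RPL4, RPL35 and RPL42) are the least certain to have been assigned to the right copy. Of the 450 member values, 426 (94.7%) were whole reads within 0.005 read, and 20 rows held a split read in at least 1 library.

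Summed over the pairs, no difference in the division between A and B was larger than the spread, except where pairs told apart by position were added to the best covered ones. For the 4 pairs with separate names and at least 10 reads in every library, RPP1, RPL4, RPP2 and RPL34, the A copies held 51.4, 41.4 and 52.3% with ethanol, against 50.6, 47.9 and 51.5% with glucose (two-sided exact permutation p = 0.9). With the 5 pairs told apart by position at the same depth added, it was 54.0, 44.6 and 55.3% with ethanol and 57.3, 57.8 and 58.5% with glucose, without overlap (two-sided exact permutation p = 0.1). Over all 33 pairs, the A share was 52.3 ± 2.95% with ethanol and 55.3 ± 0.813% with glucose (SD, n = 3 each; two-sided exact permutation p = 0.2). The more abundant copy was the same in both groups for 28 of the 33 pairs.

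The 4 named pairs overlapped between groups. The RPP1 pair had an A share of 89.5, 73.1 and 67.2% in the ethanol libraries, against 64.8, 66.3 and 74.2% in the glucose libraries. For the RPL4 pair, with its near-identical copies, it was 66.7, 79.2 and 64.5% in the ethanol libraries, against 65.0, 63.5 and 64.1% in the glucose libraries. In the RPP2 pair, B was the major copy in every library, with an A share of 26.7, 16.4 and 25.7% in the ethanol libraries, against 30.5, 25.6 and 27.7% in the glucose libraries. RPL34 had an A share of 38.5, 37.5 and 46.0% in the ethanol libraries, against 43.3, 40.4 and 43.6% in the glucose libraries. RPL34A itself had 604, 314 and 365 ppm in the ethanol libraries, against 776, 708 and 792 ppm in the glucose libraries, and RPL34B had 966, 524 and 428 ppm in the ethanol libraries, against 1015, 1046 and 1025 ppm in the glucose libraries. For both RPL34 copies every ethanol value lay under every glucose value, but neither passed the test, at -0.81 for A (limma adjusted p = 0.0517) and -0.72 for B (limma adjusted p = 0.0872) on the log2 scale.

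Single pairs differed more. In 10 of the 33 pairs (30.3%) the A shares of the 2 groups did not overlap, with A lower with ethanol in 6 (RPL2, RPL9, RPL13, RPL15, RPL23 and RPL43) and higher in 4 (RPL7, RPL19, RPL24 and RPL31). With 3 libraries per group none of these can reach an exact permutation p below 0.1, which is also the probability of no overlap when labels are exchanged at random. Of the 10, only RPL15 and RPL43 had at least 10 reads in every library. The widest gap was in RPL9, which encodes a protein near the stalk base, and the pairs described from here on were chosen after their values were seen. The A share of RPL9 was 33.3, 42.9 and 39.7% in the ethanol libraries, against 74.4, 76.0 and 71.9% in the glucose libraries. The B copy thus held the majority in each ethanol library and the A copy in each glucose library. These shares rested on 3, 14 and 73 reads in the ethanol libraries, against 211, 208 and 185 reads in the glucose libraries, and the 3 reads of Ethanol 1 gave a 95% Wilson interval of 6.15 to 79.2%. RPL9A (chromosome 7, 246168 to 246743, minus strand) had 121, 314 and 459.7 ppm in the ethanol libraries, against 1296, 1621 and 1239 ppm in the glucose libraries. It was lower with a log2 fold change of -2.17 ± 0.41 (SE, n = 3 per group; limma adjusted p = 0.00452), and it stayed past the threshold in all 19 alternative fits that included it. RPL9B (chromosome 14, 489399 to 489974, plus strand) had 241, 419 and 698 ppm in the ethanol libraries, against 446, 513 and 485 ppm in the glucose libraries. Its groups overlapped, and its log2 fold change was -0.18 ± 0.37 (SE, n = 3 per group; limma adjusted p = 0.691).

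The ends of the 2 RPL9 coding sequences are shown to let the copies be compared, as the last 60 bases up to and including the stop codon in R64, with the 10 bases that differ in capitals. Across the whole coding sequence the pair was 93.8% identical.
RPL9A: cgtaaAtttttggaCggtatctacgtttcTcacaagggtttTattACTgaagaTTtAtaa
RPL9B: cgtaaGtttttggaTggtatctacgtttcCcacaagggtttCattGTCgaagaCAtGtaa
Direct RNA reads start at the 3′ end of the molecule, so these are among the coding bases most often read.

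In RPL31, RPL7 and RPL24 the A share was higher with ethanol, but on few reads in Ethanol 1. The A share of RPL31 was 100.0, 93.8 and 80.0% in the ethanol libraries, against 68.5, 70.3 and 72.0% in the glucose libraries. The pair had 5, 16 and 45 reads in the ethanol libraries. For the 5 reads of Ethanol 1 the Wilson interval was 56.6 to 100%, which covered every glucose share of RPL31. RPL31B was the lower of the copies throughout, and RPL31A had 604, 786 and 571 ppm in the ethanol libraries, against 1040.1, 1139 and 959.8 ppm in the glucose libraries. The ethanol mean was 0.625 of the glucose mean for RPL31A and 0.146 for RPL31B. In R64 the copies differed at 8 of the last 60 coding bases, in capitals, and were 91.2% identical over the whole coding sequence.
RPL31A: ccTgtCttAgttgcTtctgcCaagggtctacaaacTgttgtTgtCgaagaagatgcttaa
RPL31B: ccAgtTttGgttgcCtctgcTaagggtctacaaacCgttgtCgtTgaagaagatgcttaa
For RPL7 the A share was 100.0, 87.5 and 79.4% in the ethanol libraries, against 75.1, 69.5 and 75.1% in the glucose libraries. With 5, 8 and 63 reads for the pair in the ethanol libraries, the Wilson interval in Ethanol 1 was again 56.6 to 100%. It covered every glucose share of RPL7. The ethanol mean was 0.432 of the glucose mean for RPL7A and 0.17 for RPL7B, and both copies passed the test as lower. In the RPL24 pair, whose protein joins the subunit late in its assembly, the A share was 62.5, 60 and 65.8% in the ethanol libraries, against 44.5, 48.2 and 51.9% in the glucose libraries. Reads for this pair numbered 8, 15 and 76 in the ethanol libraries.

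RPL13, RPL15 and RPL43 had a lower A share with ethanol, as RPL9 did. The A share of RPL13 was 0, 10.7 and 24.3% in the ethanol libraries, against 34.7, 27.0 and 30.8% in the glucose libraries. The pair had 9, 28 and 74 reads in the ethanol libraries. RPL13A was the lowest member and RPL13B did not pass, at -0.64 ± 0.25 (log2 scale, SE, n = 3 per group; limma adjusted p = 0.0592). The RPL15 pair, told apart by position, was almost wholly A, at 87.5, 80.0 and 97.2% in the ethanol libraries, against 97.7, 99.1 and 97.9% in the glucose libraries. Its B copy had 2, 4 and 2 reads in the ethanol libraries, of 16, 20 and 71 for the pair. The sum of both RPL15 genes was lower with a log2 fold change of -1.22 ± 0.28 (SE, n = 3 per group; limma adjusted p = 0.00884).

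**Figure D5:**
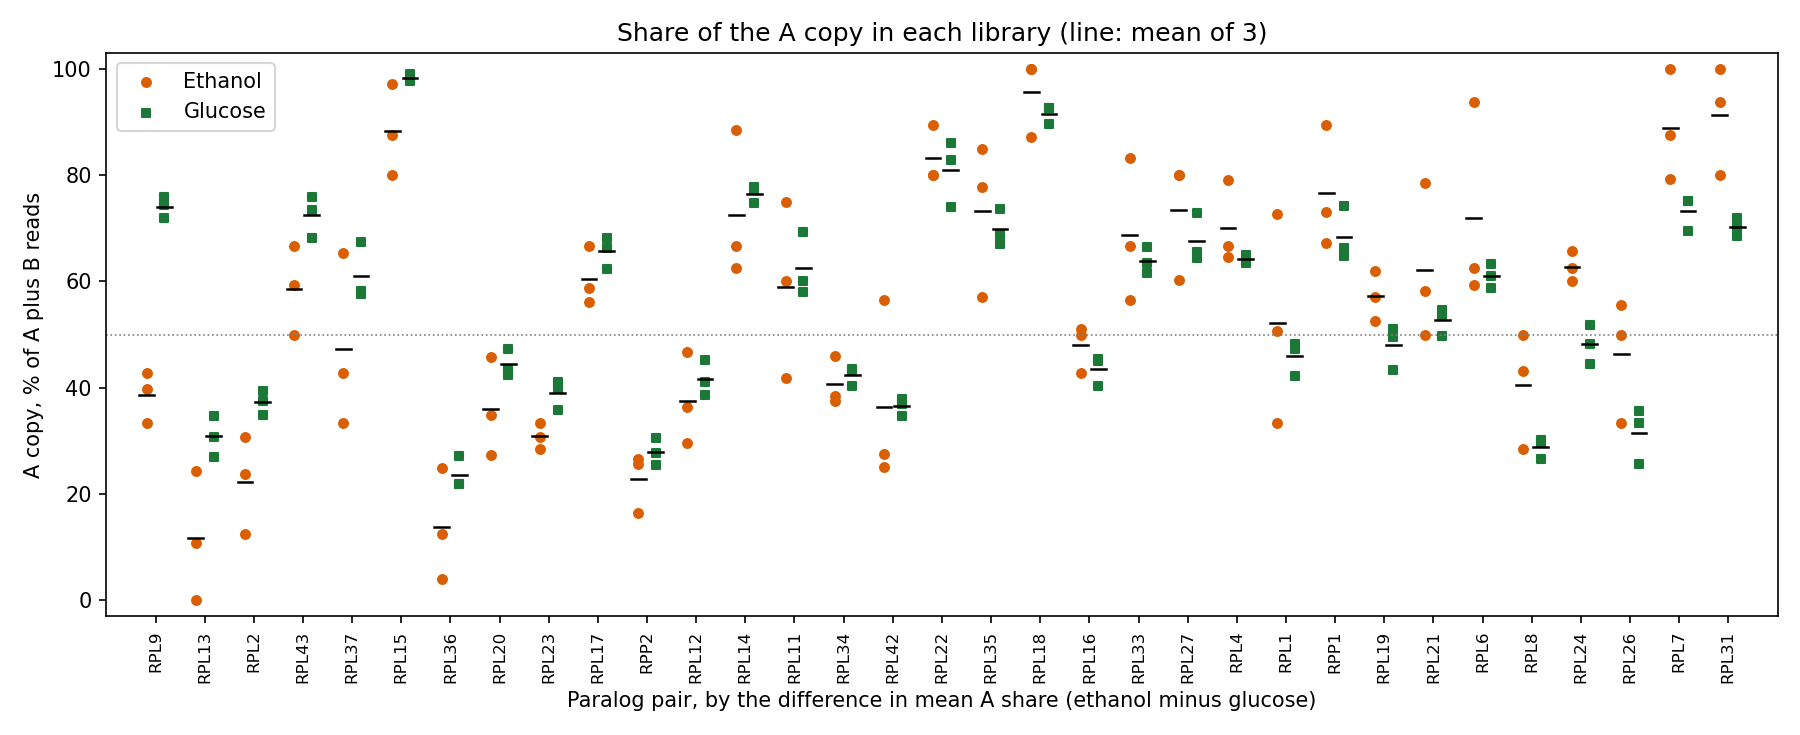
Share of the A copy in A plus B reads (%, y axis) for the 33 pairs in each library, ethanol as orange circles left of glucose as green squares, ordered by the difference in mean share; short lines are means of 3. RPL9 lies at the left end, with 33.3 to 42.9% for ethanol and 71.9 to 76.0% for glucose, and ethanol points spread more widely, on fewer reads.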

How the data were processed

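RNA from isolated mitochondria was sequenced with the Nanopore direct RNA kit SQK-RNA002, per the labels' protocols. The authors deposited 1 table of CPM values per carbon source with 3 libraries each, and per the file headers each row has a position, strand, length and class. STAR 2.5.4a, SAMtools, featureCounts and edgeR are named in the submitters' processing notes, without their settings. The handling of strand and of reads that match several places is not given in the sources used here.

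From the CPM values, rows of 1 name were summed, ENO2 was left out and each library was scaled to 1000000. The low values moved in steps that gave the worth of 1 read. Of the nonzero values, 89.1 to 94.9% per library came to whole reads within 0.005 read, under the 95% asked for a count model, so none was fitted. As an alternative, limma voom on the recovered reads called 42 members and 25.7% of all features lower. Features that averaged 200 ppm or more were tested with limma 3.58.1 under R 4.3.3 (lmFit, eBayes with trend) on log2(ppm + 50), with Benjamini-Hochberg adjustment over all of them and a threshold of 0.05. Fold changes are on that scale, where the added 50 ppm shrinks those of low genes. They compare mean logs, and in size can lie above or below the ratio of group means. The fit was also run on simulated data, with planted changes larger than most of those reported here. That run does not bear on how well smaller changes are called. Single values were compared over libraries by exact two-sided permutation (Python 3.11.15, scipy 1.17.1). Intervals are Wilson intervals and cover counting error only. No pairing by replicate number was seen, though the shallow ethanol libraries limit such a check.

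The members, gene lists and role groups were chosen with earlier results of these data known. Genes named with values per library were those without a second copy, the stalk proteins, the 5 highest and 5 lowest fold changes, and both copies of up to 5 named pairs with at least 10 reads in every library, of which there were 4. In other lists up to 3 genes past the threshold were named, apart from 1 gene that is not reported here. Other genes named were chosen after their values were seen. Features at RPL29, RPL39, RPL40 and RPL41 were not analysed here.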

Additional observations from a re-analysis of the deposited data

How the results depend on the processing

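The lower total share with ethanol kept its direction under all alternatives run. It was -3.82 to -4.28 percentage points with 1 library left out, -5.44 with ENO2 in the total and -0.661 of all deposited CPM. The totals with ENO2 and of all deposited CPM both hold the uneven ENO2 share. The members called numbered 37, with 20 without a filter, 19 (of 25 tested) at a filter of 1000 ppm, 62 with ENO2, 4 on deposited CPM and 13 to 48 with 1 library left out. Beside these counts of members, the share of all features called lower was 7.34% without a filter, 48.4% at 1000 ppm, 63.7% with ENO2 and 11.4% on deposited CPM, where the 6.35% of members was under it. With 1 library left out, the counts were smallest without Glucose 2 or 3 and largest without Ethanol 3, when 701 features were called in all. Features called numbered 539, with 113 at a filter of 1000 ppm, 222 on deposited CPM and 289 to 701 with 1 library left out. The median log2 fold change of members was -0.89, with -2.41 with ENO2, -1.40 with TMM factors, -2.28 on deposited CPM and -1.17 with the length trend removed. The first 3 of these scales also moved the median of all features tested, to -1.33, -0.49 and -1.44. Relative to that median the members lay on those scales at -1.09, -0.91 and -0.84, where they lay at -0.84 in the fit reported. At a filter of 1000 ppm the members had -0.79 and all features -0.53, a difference of only -0.26. With ENO2 in the total, 83 features were called higher and 656 lower, with TMM factors 170 and 317, and with centring 239 and 331, where the fit reported called 276 and 263. With a pseudocount in proportion to depth 361 were called higher and 235 lower, and without a filter 256 and 403.

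The summed A share of the 4 named pairs, -1.67 percentage points, turned to 1.11 as a median over pairs and ranged from -3.65 to 1.82 with 1 library left out. The value of 1.82 was that without Ethanol 2. Adding pairs told apart by position gave -6.59 over 9 pairs. For the replicate block, same-numbered libraries had correlations of deviations of -0.00532, -0.0592 and 0.0724, so no pairing by number was seen. At the ethanol depth such values cannot exclude pairing. The replicate block gave 31 members and 531 features called, and the differences of -4.04 in total share and -0.154 in the large-to-small ratio then had a smallest possible sign-flip p of 0.25.

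Of 24 genes named by rule, 20 kept their direction in all alternatives and 4 near 0 did not; the cause was not tested. RPP2B turned to 0.012 with a pseudocount in proportion to depth, 0.34 without Ethanol 3, 0.04 without Glucose 2 and 0.0093 without Glucose 3. RPL25 turned to -1.29 with ENO2, -0.11 with TMM factors and -0.95 on deposited CPM. RPP1A turned to -1.68 with ENO2, -0.019 without ribosomal protein genes in the total, -0.11 with centring, -0.43 with TMM factors, -1.29 on deposited CPM, -0.19 without Ethanol 1, -0.08 without Glucose 1 and -0.88 with the length trend removed. RPL26A turned to -1.42, -0.033, -0.13, -0.41 and -1.22 on those 5 scales in the same order, -0.035 without Ethanol 2, -0.069 without Glucose 1 and -0.089 with the length trend removed. With 1 library left out, RPP2B ranged from -0.24 to 0.34, RPP1A from -0.19 to 0.31 and RPL26A from -0.069 to 0.20. The ethanol depth, down to 8284 nuclear reads, limits what can be said of single low members.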
